A study of Mus musculus with 6 samples.

Results

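The 35 genes described here encode the enzymes and transporters that take glucose into the cell, break it down to lactate, store it as glycogen or divert it into the pentose phosphate pathway. They were found by their symbols in a table of 55487 mouse genes, and all 35 were present. Aldoa had a second row with few counts, and the row with most counts was kept. Slc16a3 and Pygl did not pass the low-count filter, so 33 of the 35 genes stood among the 13405 tested. The libraries came from 4T1, a mouse mammary carcinoma line, in bulk and with poly(A)-selected RNA; the labels class the library source as single cell, but their protocols and the table describe one bulk library per sample. CEP cells, 3 libraries, were exposed to 10 µM cepharanthine, a plant bisbenzylisoquinoline alkaloid, for 12 h. DMSO cells, 3 libraries, received the solvent dimethyl sulfoxide in equal volume for the same time. The labels give no genotype change and no further agent for either group. They do not say whether the libraries came from separate cultures, so the p-values measure the spread between these libraries, which may be technical. A lower level in bulk RNA cannot separate fewer cells that express a gene from less RNA per cell.

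Glycolysis splits glucose into pyruvate through a chain of cytosolic enzymes, and its pace is set mainly where sugar enters the cell, at hexokinase and at phosphofructokinase. The PFKFB enzymes make and remove the allosteric activator of phosphofructokinase. Tumour cells commonly send pyruvate on to lactate even with oxygen present. The pentose phosphate pathway branches off at glucose 6-phosphate and yields NADPH and ribose 5-phosphate, while glycogen is the stored form of glucose. Several steps are served by paralogous genes, which differ in tissue distribution and regulation.

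Total counts ran from 15299261 to 19411816 in CEP libraries and from 15334482 to 19655010 in DMSO libraries. Levels are CPM (counts scaled to the library size) after TMM scaling, and a gene is said to have risen or fallen at a Benjamini-Hochberg adjusted p under 0.05 over the 13405 genes (edgeR quasi-likelihood test, CEP minus DMSO). All 7 epithelial markers listed for the line (Epcam, Cdh1, Krt7, Krt8, Krt14, Krt18 and Krt19) were detected. They summed to 3640 to 3791 CPM in CEP libraries and 4203 to 4370 CPM in DMSO libraries, and 3 rose and 3 fell. The leukocyte markers Ptprc, Cd3e, Itgam and Adgre1 and the endothelial markers Pecam1, Cdh5 and Kdr each had at most 25 counts over the 6 libraries, with Adgre1 and Kdr at 0. The 4 fibroblast markers summed to 85.6 to 100.6 CPM in CEP libraries and 62.8 to 69.6 CPM in DMSO libraries, nearly all from Pdgfra, which rose, while Col1a1, Dcn and Pdgfrb were near 0. The share of counts from mitochondrially encoded genes was 2.43% to 2.89% in CEP libraries and 1.66% to 1.92% in DMSO libraries, and the part of these shifts in the results was not tested. CEP replicate 1 was the least like its group. Chi-square per degree of freedom was 9.03 and 10.9 between it and CEP replicates 2 and 3, against 2.27 between those.

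With cepharanthine, the glucose transporter gene Slc2a1, the hexokinase gene Hk1, the phosphofructokinase gene Pfkp and the 3 Pfkfb genes were higher. Hk2, Gpi1, Pfkl and Pfkm, at the same early steps, did not pass. Near the end of the chain, Eno1, Pkm and Ldha were lower, while Eno2 was higher. Of the 33 tested genes 7 rose (Slc2a1, Hk1, Pfkp, Pfkfb2, Pfkfb3, Pfkfb4 and Eno2), 5 fell (Eno1, Pkm, Ldha, G6pdx and Rpe) and 21 did not pass. That is 36.4% changed, beside 38.2% of all genes tested. The shares were 21.2% higher and 15.2% lower, beside 20.1% and 18.2% of all genes. These shares are near the background and are no result about the pathway as a whole. What follows describes which steps moved and by how much. The median log2 fold change was -0.0021 for the 33 genes and 0.0083 for all genes. The 3 CEP values lay wholly above or below the 3 DMSO values for 15 of the 33 genes (45.5%), beside 49.9% of all genes. Eno2 was the sole member that changed 2-fold or more. The other 6 that rose did so by 0.20 to 0.63 on the log2 scale, and the 5 that fell had log2 fold changes of -0.31 to -0.22.

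**Figure D1:**
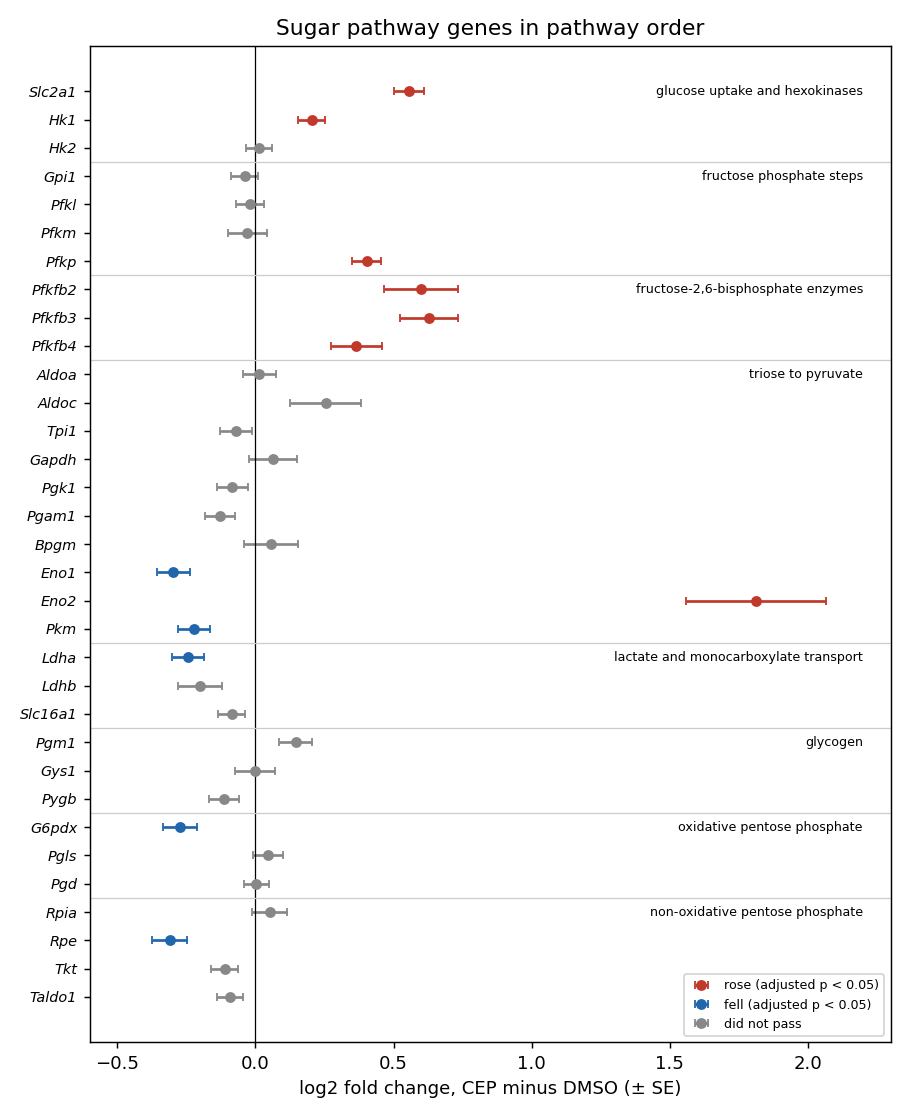
Log2 fold change (CEP minus DMSO) of the 33 tested genes in pathway order, with bars for the SE and colour for the result of the edgeR test. Eno2 stands far to the right at 1.81, the 3 Pfkfb genes lie between 0.37 and 0.63, and Eno1, Pkm and Ldha lie between -0.30 and -0.22.

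Eno2, which encodes the gamma enolase known from neurons and neuroendocrine cells, showed the largest change of the set. Its level was 40.8, 58.7 and 71.7 CPM in CEP replicates 1, 2 and 3, against 17.3, 18.5 and 13.1 CPM in DMSO replicates 1, 2 and 3. Every CEP library lay above every DMSO library, and CEP replicate 1 was the lowest of the treated libraries. The log2 fold change was 1.81 ± 0.254 (SE, edgeR adjusted p = 0.00292), a 3.51-fold rise. Eno2 lies on chromosome 6, 124760053 to 124769673, minus strand (GRCm38.p6), and none of its exons overlapped another gene in GENCODE release M21.

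Eno1, the gene of the widely expressed alpha enolase, went the opposite way. It stood at 1959, 1769 and 1705 CPM in CEP replicates 1, 2 and 3, against 2097, 2302 and 2277 CPM in DMSO replicates 1, 2 and 3. The groups did not overlap, and the log2 fold change was -0.30 ± 0.0605 (SE, edgeR adjusted p = 0.00148). Eno1 is on chromosome 4, 150236721 to 150248879, plus strand. Reads of Eno1 can be shared with near-identical copies, since 85.6% of its longest transcript matched other annotated genes at 97% identity or more. Of these, the retrotransposed Eno1b fell by 0.28 ± 0.0570 (SE, edgeR adjusted p = 0.00148) and Gm4735 fell by 0.21 ± 0.0611 (SE, edgeR adjusted p = 0.0161) on the log2 scale. Eno1 and these 2 copies summed to 2810, 2514 and 2470 CPM in CEP replicates 1, 2 and 3, against 3001, 3244 and 3241 CPM in DMSO replicates 1, 2 and 3. The direction of the sum was thus that of the single row. Eno3, the muscle-type enolase gene and no member of the set, fell as well, with 151.3, 156.2 and 148.2 CPM in CEP libraries against 208.8, 213.1 and 209.6 CPM in DMSO libraries. Its log2 fold change was -0.47 ± 0.0447 (SE, edgeR adjusted p = 2.49e-06).

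Despite its rise, Eno2 stayed a minor enolase transcript. Scaled by exon length, it made up 1.49%, 2.35% and 2.96% of Eno1 plus Eno2 in CEP replicates 1, 2 and 3, against 0.595%, 0.58% and 0.415% in DMSO replicates 1, 2 and 3. The log2 ratio of Eno2 to Eno1 was -5.49 ± 0.516 in CEP and -7.57 ± 0.291 in DMSO (SD, n = 3 each), a difference of 2.08.

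The upstream sequences of Eno2 and Eno1 are shown because these paralogs of the same step went opposite ways, and those of Pfkfb3 and Rpe because they had the next largest rise and the largest fall. Each is the stretch of 250 bases before a RefSeq start (GRCm38.p6, the C57BL/6J reference and not the BALB/c-derived 4T1 genome), 5′ to 3′ on the gene's strand. Where a gene had several starts, that nearest to the gene's 5′ end in the authors' table was used. Capitals mark ACGTG or GCGTG, the core that hypoxia-inducible factors bind, and GGGCGG, the GC box, on either strand. The windows are chr6:124769674-124769923 (minus) for Eno2, chr4:150236458-150236707 (plus) for Eno1, chr2:11553930-11554179 (minus) for Pfkfb3 and chr1:66700581-66700830 (plus) for Rpe.
Eno2: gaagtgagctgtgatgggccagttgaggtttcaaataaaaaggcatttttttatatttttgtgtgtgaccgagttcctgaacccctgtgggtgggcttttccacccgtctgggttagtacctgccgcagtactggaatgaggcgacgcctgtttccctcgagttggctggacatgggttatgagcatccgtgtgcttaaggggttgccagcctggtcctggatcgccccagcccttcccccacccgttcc
Eno1: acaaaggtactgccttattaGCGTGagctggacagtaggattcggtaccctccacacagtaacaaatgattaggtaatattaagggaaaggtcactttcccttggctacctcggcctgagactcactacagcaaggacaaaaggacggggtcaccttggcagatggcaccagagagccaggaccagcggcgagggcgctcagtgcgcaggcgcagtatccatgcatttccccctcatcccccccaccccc
Pfkfb3: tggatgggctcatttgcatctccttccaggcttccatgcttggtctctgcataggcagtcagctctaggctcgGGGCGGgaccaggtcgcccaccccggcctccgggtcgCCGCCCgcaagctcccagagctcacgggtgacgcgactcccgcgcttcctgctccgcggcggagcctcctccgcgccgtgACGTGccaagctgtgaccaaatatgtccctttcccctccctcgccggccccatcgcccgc
Rpe: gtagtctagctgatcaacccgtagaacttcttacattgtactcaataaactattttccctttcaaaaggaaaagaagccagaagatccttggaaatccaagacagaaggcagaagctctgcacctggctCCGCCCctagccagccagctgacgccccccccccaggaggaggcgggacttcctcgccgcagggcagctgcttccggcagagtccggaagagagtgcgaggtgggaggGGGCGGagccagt
Eno2 held none of these letters in its window, Eno1 held GCGTG, Pfkfb3 held ACGTG and the GC box, and Rpe held the GC box. All 35 genes matched a promoter entry. ACGTG was found in 12 of the 35 windows, in 2 of the 7 genes that rose (Pfkfb3 and Slc2a1) and in 1 of the 5 that fell (Ldha), beside 16.6% of all 32851 RefSeq windows. GCGTG was found in 19 of the 35, in 4 of the 7 that rose and in 2 of the 5 that fell, beside 28.2% of all windows. The GC box stood in 24 of the 35, in 4 of the 7 and in 4 of the 5, beside 32.7% of all windows. The E-box CACGTG, which contains ACGTG on both strands, stood in 3 of the 35 (6.02% of all windows), Ldha among them. The lysosomal CLEAR-type GTCACGTG stood in 1 of the 35, Slc16a1 (1.85% of all windows), and the C/EBP-ATF composite TGATGNAA in 0 of the 35 (3.45% of all windows). These are matches of letters and do not show binding. The windows also differ in base composition. The median GC content of all windows was 52.4%, and most member windows lay above it, with a range from 36.4% (Pfkm) to 76.4% (Slc16a1). Whether the shares differ from those of windows with like GC content was not tested.

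The transporter gene of glucose entry rose. Slc2a1 encodes GLUT1, the basal glucose transporter of most cells. It stood at 150.4, 158.2 and 165.4 CPM in CEP replicates 1, 2 and 3, against 102.8, 114.4 and 105.1 CPM in DMSO replicates 1, 2 and 3. The groups were well apart, and the log2 fold change was 0.56 ± 0.0545 (SE, edgeR adjusted p = 3.19e-06), the smallest p of the set. Slc2a1 lies on chromosome 4, 119108711 to 119137983, plus strand. Of 5 further glucose transporter genes listed, 3 were tested and did not pass: Slc2a8 stood at 0.22 ± 0.148, Slc2a4 at 0.04 ± 0.359 and Slc2a5 at -0.14 ± 0.228 (log2 fold change ± SE). Slc2a3 and Slc2a2 were too low to test.

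Of the hexokinases, which phosphorylate glucose and so trap it, Hk1 rose and Hk2 did not pass. Hk1 had 301.3, 283.7 and 275.0 CPM in CEP replicates 1, 2 and 3, against 248.2, 255.1 and 243.6 CPM in DMSO replicates 1, 2 and 3. Its groups did not overlap, with a log2 fold change of 0.20 ± 0.0484 (SE, edgeR adjusted p = 0.00426). Hk2, the isoform often raised in tumours, had 230.6, 217.9 and 218.0 CPM in CEP replicates against 214.9, 228.3 and 217.7 CPM in DMSO replicates. Its groups overlapped, and its log2 fold change was 0.01 with a 95% interval of -0.09 to 0.11 (edgeR adjusted p = 0.854). Per exon length, Hk2 formed 35.1% ± 0.436 of both hexokinase transcripts in CEP and 38.2% ± 0.434 in DMSO (SD, n = 3 each), with no overlap between the groups. Hk3 and Hkdc1 were too low to test.

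At phosphofructokinase, the committed step of glycolysis, the change was in the platelet-type gene. Pfkp had 158.3, 160.1 and 152.9 CPM in CEP replicates 1, 2 and 3, against 115.9, 127.4 and 113.5 CPM in DMSO replicates 1, 2 and 3. The groups did not overlap (log2 fold change 0.40 ± 0.0521, SE, edgeR adjusted p = 4.37e-05). Pfkp lies on chromosome 13, 6579768 to 6648777, minus strand, and 5.58% of the exon bases of all its transcripts together overlap Pitrm1 on the opposite strand. Of its longest transcript, 18.0% matched Pitrm1, which had 17432 counts in total against 14239 for Pfkp. The part of this overlap in the rise of Pfkp was not tested. Pfkl, the liver-type gene and the most abundant of the family, stood at -0.02 ± 0.0503, and Pfkm, the muscle-type gene, at -0.03 ± 0.0704 (log2 fold change ± SE), with overlapping groups. Pfkp thus made up 25.4% ± 0.816 of phosphofructokinase transcripts per exon length in CEP and 20.3% ± 1.13 in DMSO (SD, n = 3 each). The share of Pfkl was 64.8% ± 1.19 in CEP and 69.2% ± 0.831 in DMSO. Gpi1, the isomerase between hexokinase and phosphofructokinase, had 551.0, 509.1 and 528.1 CPM in CEP replicates 1, 2 and 3, against 530.2, 552.4 and 550.0 CPM in DMSO replicates 1, 2 and 3. Its groups overlapped, and it did not pass (log2 fold change -0.04, 95% interval -0.14 to 0.06).

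All 3 PFKFB members rose, beside 20.1% of all genes tested, and 3 genes are too few for a result about the family. Pfkfb3, whose product strongly favours making the activator of phosphofructokinase, had 32.0, 42.5 and 42.2 CPM in CEP replicates 1, 2 and 3, against 23.9, 27.0 and 24.4 CPM in DMSO replicates 1, 2 and 3. CEP replicate 1 again lay closest to the solvent libraries, and the groups did not overlap (log2 fold change 0.63 ± 0.105, SE, edgeR adjusted p = 4.63e-04). Pfkfb3 is on chromosome 2, 11471433 to 11554077, minus strand. Pfkfb2, the heart-type gene, had 9.89, 12.0 and 13.6 CPM in CEP replicates 1, 2 and 3, against 7.72, 7.62 and 7.98 CPM in DMSO replicates 1, 2 and 3. Its log2 fold change was 0.60 ± 0.133 (SE, edgeR adjusted p = 0.00269). Gm29427, with 0 counts, covers 17.4% of the exon bases of Pfkfb2 on the same strand. Yod1, with 1493 counts in total against 1009 for Pfkfb2, covers 2.12% on the opposite strand. Pfkfb4 had 18.2, 21.3 and 20.7 CPM in CEP against 15.4, 15.4 and 15.7 CPM in DMSO libraries (log2 fold change 0.37 ± 0.0928, SE, edgeR adjusted p = 0.00651). These 3 genes were among the least expressed of the set, at 4.81 to 8.10 CPM per kilobase of exon in CEP and 3.17 to 5.23 in DMSO. The lower ends are Pfkfb2 by the authors' exon length of 2454 bases. With its longest GENCODE transcript of 4425 bases, Pfkfb2 had 2.67 CPM per kilobase in CEP and 1.76 in DMSO. The log2 ratio of Pfkfb4 to Pfkfb3 was -0.49 ± 0.113 in CEP and -0.23 ± 0.0997 in DMSO (SD, n = 3 each). Pfkfb1, outside the set, stood at -0.08 ± 0.215, and Tigar, which encodes a fructose bisphosphatase that opposes these enzymes, at 0.18 ± 0.109 (log2 fold change ± SE), and neither passed.

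**Figure D2:**
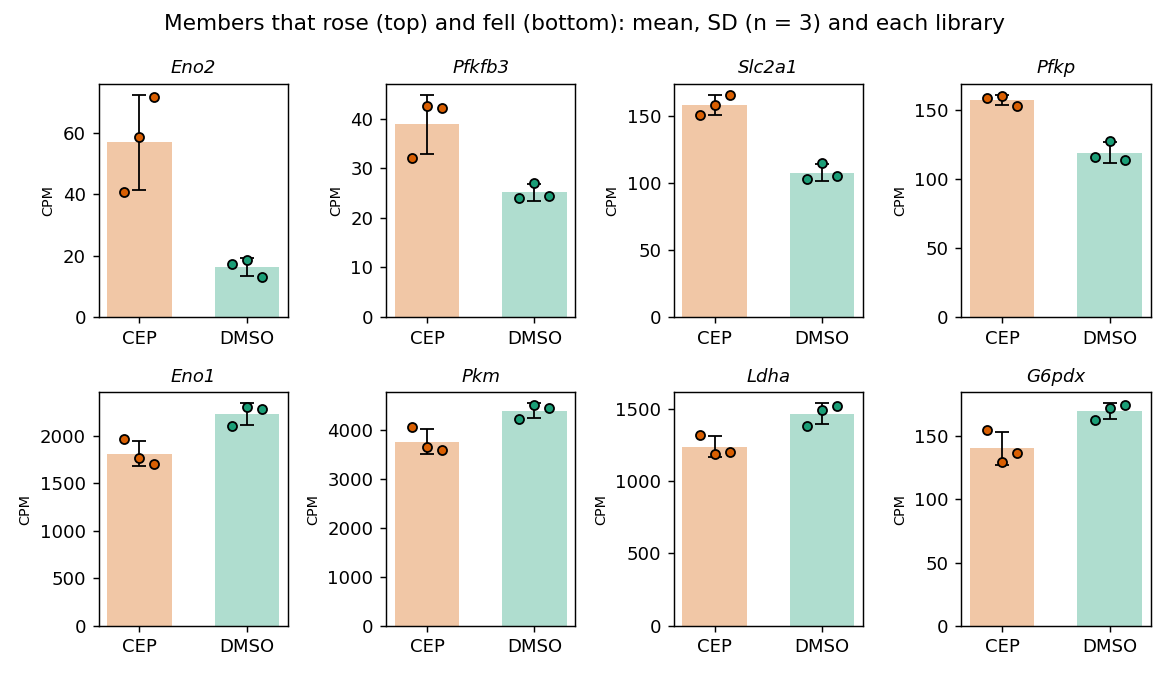
CPM of 4 genes that rose (top row) and 4 that fell (bottom row) in CEP (left bar) and DMSO (right bar) libraries. Bars are means, error bars the SD (n = 3) and points the libraries in replicate order. In no panel do the points of the groups overlap, but these genes were picked among those called. Of all genes tested, 49.9% had no overlap.

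Between aldolase and phosphoglycerate mutase no member passed. Aldoa, the main aldolase gene, averaged 962 ± 57.0 CPM in CEP libraries and 952 ± 57.2 CPM in DMSO libraries (log2 fold change 0.01, 95% interval -0.11 to 0.14). Aldoc, the brain-type aldolase gene, averaged 15.6 ± 1.14 CPM in CEP libraries and 13.1 ± 2.46 CPM in DMSO libraries, with overlapping groups (log2 fold change 0.26 ± 0.129, SE, edgeR adjusted p = 0.132). Tpi1, which interconverts the triose phosphates, stood at -0.07 ± 0.0571 and Bpgm, which makes 2,3-bisphosphoglycerate chiefly in red cells, at 0.06 ± 0.0995 (log2 fold change ± SE). Pgk1, the first ATP-yielding enzyme, had 785.7, 750.1 and 768.3 CPM in CEP replicates 1, 2 and 3, against 751.5, 861.7 and 828.5 CPM in DMSO replicates 1, 2 and 3. DMSO replicate 1 lay among the CEP values, and the log2 fold change of Pgk1 was -0.08 ± 0.0550 (SE, edgeR adjusted p = 0.246). Pgam1, which moves the phosphate on 3-phosphoglycerate, averaged 368 ± 26.5 CPM in CEP libraries and 402 ± 14.8 CPM in DMSO libraries (log2 fold change -0.13 ± 0.0556, SE, edgeR adjusted p = 0.083).

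Gapdh, which encodes glyceraldehyde-3-phosphate dehydrogenase and is often used for normalisation, shares most of its sequence with pseudogenes. Its row held 99.7, 77.5 and 91.5 CPM in CEP replicates 1, 2 and 3, against 92.8, 85.8 and 79.1 CPM in DMSO replicates 1, 2 and 3, with overlapping groups. Per kilobase of exon that is 70.4 CPM in CEP and 67.5 in DMSO, beside 421 in CEP and 446 in DMSO for Pgk1, the next enzyme. At 97% identity or more, 88.0% of its longest transcript matched 49 other annotated genes. The most counted of these, Gm13394, held 807.5, 644.0 and 649.5 CPM in CEP replicates 1, 2 and 3, against 725.5, 839.3 and 808.0 CPM in DMSO replicates 1, 2 and 3. Gapdh and its 49 copies summed to 1063, 848.1 and 880.4 CPM in CEP against 986.9, 1072 and 1034 CPM in DMSO, with overlapping groups. The Gapdh row itself had a log2 fold change of 0.06 ± 0.0872 (SE, edgeR adjusted p = 0.595), while the sums differed by -0.15 on the log2 scale of their means. How reads were divided among these loci was not tested, and the sign differed between the row and the sum. Pgk1 also had 68.8% of its transcript matched elsewhere, but its 3 copies added little, with 788.8, 752.5 and 772.5 CPM in CEP and 755.5, 865.5 and 832.0 CPM in DMSO for the sum.

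Pkm and Ldha, both among the 3 most abundant members per exon length, fell. Pkm encodes the pyruvate kinase of tumours and muscle, which makes the second ATP and pyruvate. It had 4066, 3650 and 3585 CPM in CEP replicates 1, 2 and 3, against 4225, 4511 and 4451 CPM in DMSO replicates 1, 2 and 3. The groups did not overlap, though CEP replicate 1 came near them (log2 fold change -0.22 ± 0.0587, SE, edgeR adjusted p = 0.00813). That call ended without CEP replicate 2 (-0.20, edgeR adjusted p = 0.0538) and without DMSO replicate 2 (-0.21, edgeR adjusted p = 0.0571), where the adjusted p over all alternatives ran from 3.12e-09 to 0.0571. Gene counts do not separate the M1 and M2 splice forms of Pkm. The gene lies on chromosome 9, 59656368 to 59679375, plus strand, and Gm49759 covers 15.3% of its exon bases on the same strand. Its near-identical copy Gm6560, which matched 65.5% of the transcript, fell as well, by 0.26 ± 0.0644 (SE, edgeR adjusted p = 0.00531). Gm6560 had 4505 counts in total against 422798 for Pkm and may share its reads, so its fall may not be a separate observation.

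Ldha, which encodes the lactate dehydrogenase subunit that turns pyruvate into lactate, had 1322, 1191 and 1201 CPM in CEP replicates 1, 2 and 3. DMSO replicates 1, 2 and 3 had 1385, 1494 and 1521 CPM, all above the treated libraries (log2 fold change -0.24 ± 0.0566, SE, edgeR adjusted p = 0.00364). Ldha lies on chromosome 7, 46841475 to 46855627, plus strand. Ldhb, the heart-type subunit gene, had 21.2, 20.7 and 20.1 CPM in CEP against 23.4, 23.1 and 24.8 CPM in DMSO, and its groups did not overlap. It did not pass (log2 fold change -0.20 ± 0.0796, SE, edgeR adjusted p = 0.0594). The balance of the subunits overlapped between groups, as the log2 ratio of Ldhb to Ldha per exon length was -6.42 ± 0.0577 in CEP and -6.46 ± 0.0655 in DMSO (SD, n = 3 each).

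Lactate leaves the cell through monocarboxylate transporters. Slc16a1 (MCT1) averaged 169 ± 7.62 CPM in CEP libraries and 180 ± 5.80 CPM in DMSO libraries and did not pass (log2 fold change -0.09 ± 0.0492, SE, edgeR adjusted p = 0.181). Slc16a3 (MCT4), the exporter often found in glycolytic tumours, had 1, 1 and 1 counts in CEP and 1, 0 and 1 in DMSO, so it was at the limit of detection in both groups. Their partner chaperone gene Bsg, outside the set, averaged 651 ± 8.03 CPM in CEP libraries and 629.8 ± 10.7 CPM in DMSO libraries (log2 fold change 0.05 ± 0.0449, SE). Slc16a8 (MCT3) rose at a low level, with 2.25, 3.77 and 3.61 CPM in CEP against 2.12, 0.919 and 1.33 CPM in DMSO. Its log2 fold change was 1.12 ± 0.304 (SE, edgeR adjusted p = 0.00971).

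**Figure D3:**
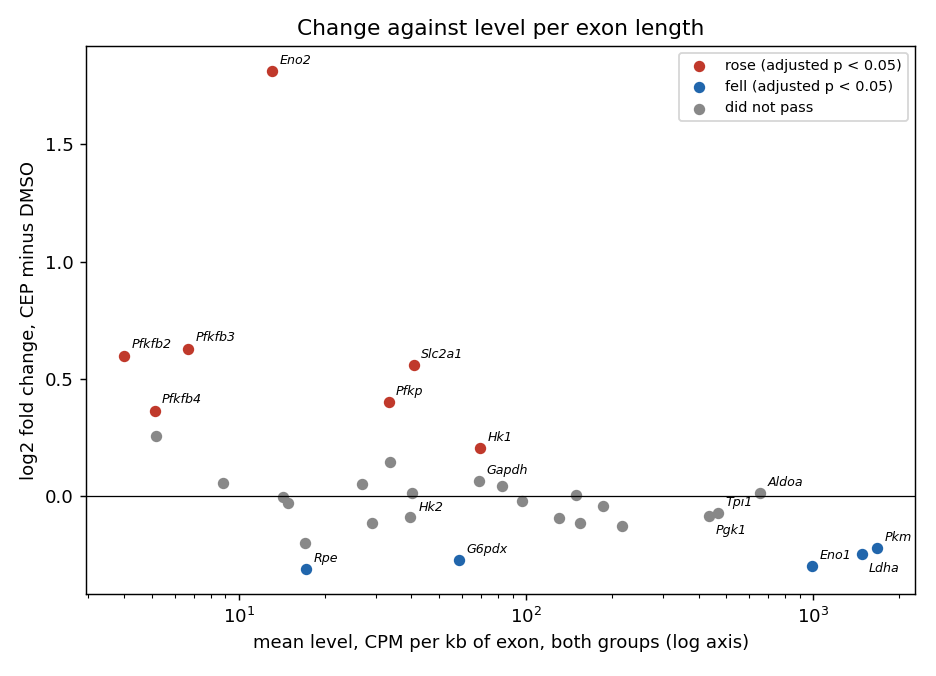
Log2 fold change (CEP minus DMSO) of the 33 tested genes against their mean level in CPM per kilobase of exon (log axis), coloured by the result of the edgeR test. Pkm, Ldha and Eno1 are the 3 genes furthest to the right and all lie below 0, and the genes that rose lie at or below the level of Hk1.

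Ordered by level per kilobase of exon over both groups, the 3 most abundant members were Pkm (1549 in CEP and 1807 in DMSO), Ldha (1358 in CEP and 1608 in DMSO) and Eno1 (893 in CEP and 1098 in DMSO). Aldoa came next by single rows, with 659 in CEP and 652 in DMSO, its values overlapping between groups. Gapdh was placed by its own row, without the 49 copies that may hold its reads. Summed with those copies and not scaled by length, it had a mean CPM of 930.4 (CEP libraries) or 1031 (DMSO libraries). Its place with the copies was not tested, and the split by level and the correlation below use its single row. The place of Ldha rests on the authors' exon length of 912 bases. With its longest GENCODE transcript of 1815 bases, Ldha had 682 CPM per kilobase in CEP and 808 in DMSO, next after Eno1. Among the 11 genes of highest level 0 rose and 3 fell, with a median log2 fold change of -0.09, and among the 11 of lowest level 4 rose and 1 fell, with a median of 0.06. Of all genes tested, at any level, 20.1% rose and 18.2% fell. The split by level was added after the data were seen, and whether change went with level among all genes was not tested. Across the 33 genes, level and log2 fold change had a Spearman correlation of -0.551, given as a description since all points share the same 6 libraries and their scaling. The summed counts of the 35 genes were 1.40%, 1.31% and 1.31% of all counts in CEP replicates 1, 2 and 3, against 1.42%, 1.499% and 1.49% in DMSO replicates 1, 2 and 3. The PFKFB genes, which rose, made up 0.00591% to 0.0077% of counts in CEP and 0.00474% to 0.00497% in DMSO.

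No member of glycogen metabolism passed. Pgm1, the phosphoglucomutase that links glucose 6-phosphate to glycogen, had 89.1, 79.5 and 82.2 CPM in CEP against 70.7, 79.4 and 76.9 CPM in DMSO, barely without overlap (log2 fold change 0.15 ± 0.0612, SE, edgeR adjusted p = 0.0746). For Pgm1, 13.6% of the exon bases overlap Itgb3bp on the opposite strand. Gys1, the muscle-type glycogen synthase gene, had 57.8, 47.8 and 51.7 CPM in CEP against 55.4, 51.5 and 50.9 CPM in DMSO, with overlapping groups. Its log2 fold change was -0.0021, with a 95% interval of -0.16 to 0.15. For Gys1, 6.47% of the exon bases overlap Ruvbl2 on the opposite strand. Ruvbl2 had 15815 counts in total against 5448 for Gys1, and the part of this overlap was not tested. Of the phosphorylase genes, which release glucose from glycogen, the brain-type Pygb had 113.4, 113.7 and 102.4 CPM in CEP replicates 1, 2 and 3, against 115.5, 117.5 and 123.4 CPM in DMSO replicates 1, 2 and 3. Its groups did not overlap, but it did not pass (log2 fold change -0.11 ± 0.0541, SE, edgeR adjusted p = 0.111). Pygl, the liver-type gene, had 0 counts in all 6 libraries, where a floor of 3 counts per library corresponds to 0.157 to 0.195 CPM in CEP and 0.153 to 0.197 CPM in DMSO.

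Of 15 glycogen genes tested from a second list, 3 rose and 2 fell (33.3% changed), beside 38.2% of all genes, so the share is not above the background. Gaa, the lysosomal acid alpha-glucosidase that degrades glycogen inside lysosomes, had 188.0, 208.4 and 219.7 CPM in CEP replicates against 129.6, 136.9 and 135.8 CPM in DMSO replicates. Its log2 fold change was 0.61 ± 0.0572 (SE, edgeR adjusted p = 2.06e-06). Stbd1, which anchors glycogen to membranes, rose by 0.57 ± 0.143 on the log2 scale (SE, edgeR adjusted p = 0.00752), with 15.2, 21.8 and 23.9 CPM in CEP against 13.5, 13.1 and 14.1 CPM in DMSO. Of the phosphorylase kinase subunits, Phkg2 rose by 0.38 ± 0.105 (SE, edgeR adjusted p = 0.0114), and Phkb fell by 0.35 ± 0.0711 (SE, edgeR adjusted p = 0.00134). The Phkg2 call ended without CEP replicate 2 (0.31, edgeR adjusted p = 0.0624), and 21.9% of its exon bases overlap Ccdc189 on the opposite strand. Gbe1, the branching enzyme gene, fell by 0.30 ± 0.0818 (SE, edgeR adjusted p = 0.0104).

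In the oxidative branch of the pentose phosphate pathway, the entry enzyme was the member that fell. G6pdx, the X-linked glucose-6-phosphate dehydrogenase gene whose product makes NADPH, had 155.2, 129.9 and 136.4 CPM in CEP replicates 1, 2 and 3, against 163.0, 172.0 and 174.6 CPM in DMSO replicates 1, 2 and 3. The groups did not overlap, and the log2 fold change was -0.27 ± 0.0614 (SE, edgeR adjusted p = 0.00311). G6pdx lies on chromosome X, 74409483 to 74429194, minus strand, and 13.6% of its exon bases overlap Ikbkg on the opposite strand. The next enzymes did not pass: Pgls, the lactonase gene, had 131.0, 115.6 and 119.4 CPM in CEP replicates 1, 2 and 3, against 113.4, 120.7 and 120.9 CPM in DMSO replicates 1, 2 and 3. Its groups overlapped, and 20.6% of its exon bases are shared with Fam129c on the same strand. Pgd, the second NADPH-yielding dehydrogenase gene, averaged 332 ± 8.89 CPM in CEP libraries and 332 ± 9.87 CPM in DMSO libraries (log2 fold change 0.0034, 95% interval -0.10 to 0.10). H6pd, the enzyme that carries out the first steps inside the endoplasmic reticulum and no member of the set, fell by 0.35 ± 0.0673 (SE, edgeR adjusted p = 9.24e-04).

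In the non-oxidative branch, which interconverts sugar phosphates, Rpe fell. This epimerase gene of ribulose 5-phosphate had 44.3, 41.5 and 39.6 CPM in CEP replicates 1, 2 and 3, against 53.5, 51.2 and 51.1 CPM in DMSO replicates 1, 2 and 3. The groups were apart, and the log2 fold change was -0.31 ± 0.0644 (SE, edgeR adjusted p = 0.00168). Rpe lies on chromosome 1, 66700831 to 66719805, plus strand, and 17.9% of its exon bases overlap Kansl1l on the opposite strand. Rpia, the isomerase that makes ribose 5-phosphate, stood at 0.05 ± 0.0633 (log2 fold change ± SE). Tkt, the transketolase gene, had 495.6, 475.7 and 464.4 CPM in CEP against 494.7, 528.0 and 529.1 CPM in DMSO, overlapping through CEP replicate 1 and DMSO replicate 1 (log2 fold change -0.11 ± 0.0487, SE, edgeR adjusted p = 0.0829). Taldo1, the transaldolase gene, stood at -0.09 ± 0.0478 (log2 fold change ± SE, edgeR adjusted p = 0.145).

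Ribose 5-phosphate is turned into phosphoribosyl pyrophosphate, the sugar donor of nucleotides, by enzymes listed with the pathway but outside the set. Of 7 tested genes of that second pentose phosphate list, 0 rose and 4 fell (57.1%), beside 20.1% and 18.2% of all genes, and 2 of the 4 may share reads. Prps2 fell by 0.55 ± 0.0694 (SE, edgeR adjusted p = 3.57e-05), with 56.0, 51.0 and 45.6 CPM in CEP against 75.2, 73.4 and 74.8 CPM in DMSO. Prps1 fell by 0.27 ± 0.0586 (SE, edgeR adjusted p = 0.00233), and its copy Prps1l3, with which it may share reads, fell by 0.33 ± 0.0729 (SE, edgeR adjusted p = 0.00252). H6pd was the last of the 4. Over the whole second list of 62 genes, 39 were tested, 5 rose, 7 fell and 27 did not pass, which is 30.8% changed, beside 38.2% of all genes tested. Pck2, the mitochondrial PEP carboxykinase gene, was the 1 of 8 tested genes of gluconeogenesis and other glycolysis that rose, by 0.41 ± 0.0725 (SE, edgeR adjusted p = 7.48e-04), and Eno3 was the 1 that fell.

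**Figure D4:**
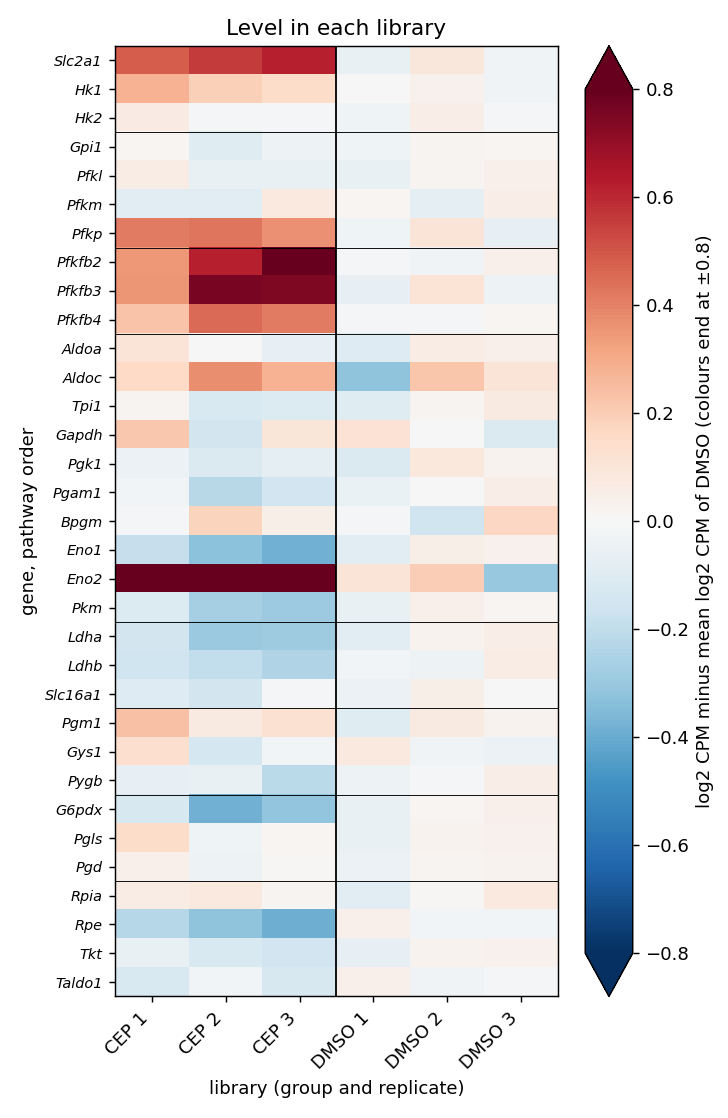
Level of each tested gene in each library (CEP left of the line, DMSO right of it), as log2 CPM minus the mean of the DMSO libraries, with colours ending at ±0.8. The genes that rose or fell keep their colour across the 3 CEP libraries, and the shade is palest in CEP replicate 1 for most of them. Eno2 is past the end of the colour range in all 3.

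As groups, the changed members moved less in CEP replicate 1 than in the other CEP libraries. This was not particular to the members, since CEP replicate 1 also lay nearer the DMSO libraries over all genes tested. On their first principal component (60.7% of the variance), CEP replicates 1, 2 and 3 stood at -10.1, -28.46 and -30.38. The DMSO libraries stood at 21.93 to 23.84. For the 7 that rose, the median log2 difference from the DMSO mean was 0.35, 0.56 and 0.62 in CEP replicates 1, 2 and 3. For the 5 that fell it was -0.15, -0.32 and -0.32 in the same libraries. Hk1, highest in CEP replicate 1, and Pfkp, lowest in CEP replicate 3, were exceptions. With CEP replicate 1 left out, 8 members rose and 11 fell of 33 (57.6%), beside 50.6% of all genes tested in that fit. The further calls were Aldoc (0.30, edgeR adjusted p = 0.0434) among the rises and Tpi1 (-0.13, edgeR adjusted p = 0.00527), Pgk1 (-0.11, edgeR adjusted p = 0.0289), Pgam1 (-0.20, edgeR adjusted p = 3.83e-05), Ldhb (-0.24, edgeR adjusted p = 0.0239), Pygb (-0.15, edgeR adjusted p = 0.00711) and Tkt (-0.15, edgeR adjusted p = 7.46e-04) among the falls.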

How the data were processed

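Samples were grouped by their titles. The table deposited by the authors gives raw read counts for each Ensembl gene in the 6 libraries, with exon lengths and GRCm38.p6 locations per the file headers. The submitters' processing notes name HISAT2, HISAT, HTSeq, DESeq2 and GRCm38, without roles or order. Neither the strand setting nor the annotation release was stated, being not given in the sources used here. Per the labels' protocols, the kit was stranded and selected poly(A) RNA. Counting without strand would mix genes that overlap on opposite strands, and reads that match several loci may have been dropped or split.

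Genes passing filterByExpr (minimum count 10, minimum total 15) were TMM-scaled and fitted with the robust quasi-likelihood method of edgeR, and p-values were adjusted over all genes tested. Each SE was derived from the F statistic and the log2 fold change. The scripts were tested on simulated data. Members, lists and the rule for named genes were chosen with earlier results of these data known. By that rule, values per library are given for the 2 members of each step with the smallest adjusted p, those changed 1.5-fold and 8 fixed genes. Other members and transporter or control genes are described by their values. Of the second list, up to 3 genes per direction and sub-list are named, and Prps1l3 was added after its values were seen, as was the split by level. Exon overlaps and copies (megablast, at least 100 bases at 97% identity) come from GENCODE M21, and promoters from RefSeq. Floors cover counting error only. Same-numbered libraries did not deviate together, with correlations of -0.0462, 0.0245 and -0.0354. Software comprised edgeR 4.0.16, limma 3.58.1 and DESeq2 1.42.0 under R 4.3.3, with Python 3.11.15 and blastn 2.17.0. Alternatives comprised other scalings, DESeq2, limma-voom, other low-count filters, a replicate block, leaving out every library in turn, a stricter threshold of 0.01 and, added after the data were seen, removal of length and GC trends and levels per longest transcript.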

Additional observations from a re-analysis of the deposited data

How the results depend on the processing

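Of the 12 changed members, 11 kept their direction and their side of the threshold under all 16 alternatives, and Pkm is the exception described with its values. The 7 rises were called under every alternative. The number that fell was 9 with upper-quartile scaling (Pgam1, Ldhb, Pygb and Tkt added, where the median of all genes was -0.0225), beside 22.1% of all genes. It ran from 4 to 11 with 1 library left out, the highest without CEP replicate 1, beside 12.6% to 25.7% of all genes. For genes of the second list that rose, leaving out 1 library gave 4 to 9, beside 14.8% to 24.8% of all genes. Over all genes, 5125 changed, 3307 at a threshold of 0.01, and 3735 to 6905 with 1 library left out. With the replicate block 4896 genes changed (19.4% of all genes higher and 17.2% lower), 7 members rose and 5 fell, and no member's call changed. Whether the replicate numbers pair the libraries was not settled by this block or by the correlations, which rest on few libraries. Removal of length and GC trends gave 7 rises and 7 falls (Pygb and Tkt added), beside 19.4% and 18.2% of all genes.

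The sign of 8 members that did not pass turned under some alternatives, none of them past the threshold there. With 1 library left out, the log2 fold change ran from -0.0291 to 0.0359 for Hk2, from -0.0463 to 0.0534 for Aldoa, from -0.0333 to 0.1556 for Gapdh, from -0.0237 to 0.0817 for Pgls, from -0.0281 to 0.0237 for Pgd, from -0.0747 to 0.0010 for Pfkl, from -0.0935 to 0.0586 for Gys1 and from -0.0189 to 0.1465 for Bpgm. Upper-quartile scaling gave -0.0177 for Hk2, -0.0160 for Aldoa and -0.0270 for Pgd. Pgd also stood at -0.0032 with RLE scaling, -0.0031 with DESeq2 and -0.0052 with no low-count filter, Gys1 at 2e-04 with a filter of 1 CPM in 3 libraries, and Hk2 at -0.0061 after removal of length and GC trends. The cause was not tested. With longest transcripts as lengths, an alternative chosen after seeing the data, the correlation of level and change was -0.549. Depth limits Slc16a3 (at most 1 count in each library), which was fitted only with no low-count filter, and Pygl with 0 counts, and their ratios to Slc16a1 and Pygb could not be computed with counts of 0.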
